A study of Homo sapiens with 12 samples.

Results

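The licensing and fork genes of DNA replication were followed across 4 treatments of SK-OV-3 cells, an established human ovarian cancer line. They comprise 45 genes taken by name for their role in replication, in a choice made with earlier results of these data known, and each matched exactly 1 of the 60623 gene rows of every library. By role they fall into 14 genes of origin licensing, 7 of helicase activation, 9 of the polymerases, 11 of the clamp, clamp loader, ligase and single-strand binding group, and 4 that act at the moving fork.

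RNA was sequenced after 24 h in 4 groups of 3 libraries: doxorubicin at 300 nM together with IN10018 at 3 μM (the combination), doxorubicin alone at 300 nM, IN10018 alone at 3 μM, and the solvent DMSO. Doxorubicin traps topoisomerase II on DNA and so leaves breaks, and IN10018 is an inhibitor of focal adhesion kinase (FAK). The comparisons ask how each drug, alone and on top of the other, moved these transcripts in the same line. All groups are the same line, labelled diploid, and since no label states whether each library is a culture of its own, p-values cover the spread between these libraries and may cover technical spread alone.

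Replication origins are licensed in G1, when the origin recognition complex (ORC), CDC6 and CDT1 load the MCM helicase onto DNA, and geminin (GMNN) later holds CDT1 back so that no origin is loaded again. In S phase the CDC7 kinase with DBF4 lets CDC45 and the GINS complex join MCM as the active helicase, polymerase alpha with primase lays the primers, polymerases epsilon and delta copy the strands, and PCNA, its loader RFC, FEN1 and LIG1 finish the lagging strand. Many of these genes are transcribed at the entry to S phase under E2F factors, so that in a culture their RNA follows both the share of cells near S phase and the level per cell, which bulk RNA cannot tell apart.

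Promoter stretches of 5 members are shown because E2F sites are the best known shared feature of these promoters and because these 5 span the results below, from no call to the largest increases. Each is the 120 bases before the start site, 5′ to 3′ on the gene's own strand, from RefSeq on GRCh38.p14, and capitals mark letters of an E2F match (TTTCCCGC, TTTCGCGC, TTTGCCGC or TTTGGCGC, or the reverse complement of any of them). DTL (chr1:212035628-212035747, plus strand) and CDT1 (chr16:88803669-88803788, plus strand) had among the largest increases with doxorubicin and hold 1 match each. RFC3 (chr13:33818029-33818148, plus strand) holds 1 match and rose more moderately, MCM6 (chr2:135876444-135876563, minus strand) holds 2 overlapping matches and was not called in any comparison, and POLD1 (chr19:50384203-50384322, plus strand) had the largest increase with doxorubicin alone and holds none.
DTL: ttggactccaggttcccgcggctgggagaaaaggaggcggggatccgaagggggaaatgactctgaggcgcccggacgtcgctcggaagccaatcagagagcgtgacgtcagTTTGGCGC
CDT1: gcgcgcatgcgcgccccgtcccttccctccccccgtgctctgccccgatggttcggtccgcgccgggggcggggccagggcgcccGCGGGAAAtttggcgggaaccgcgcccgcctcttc
RFC3: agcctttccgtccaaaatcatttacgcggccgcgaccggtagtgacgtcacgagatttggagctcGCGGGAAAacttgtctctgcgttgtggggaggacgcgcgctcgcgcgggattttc
MCM6: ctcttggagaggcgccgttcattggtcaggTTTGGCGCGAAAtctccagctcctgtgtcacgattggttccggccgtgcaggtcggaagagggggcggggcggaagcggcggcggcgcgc
POLD1: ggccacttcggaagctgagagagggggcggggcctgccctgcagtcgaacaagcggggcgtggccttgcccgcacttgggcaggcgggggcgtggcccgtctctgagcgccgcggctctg

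Of the 45 members, 39 had a RefSeq window of 250 bases before to 50 bases after the start, and GINS4, MCM4, MCM5, POLD3, RPA2 and RPA3 had none. An E2F match stood in 17 of the 39 windows (43.6%), against 894 of 27305 promoters of all genes (3.3%) and 471 of 8041 promoters of genes tested (5.9%). The CCAAT box, read as CCAAT on either strand, stood in 22 of the 39 (56.4%), against 35.6% of all promoters and 37.1% of those of genes tested. The cell cycle homology region (CHR), read as TTTGAA or TTTAAA on either strand, stood in 2 of the 39 (5.1%), against 24.5% and 15.4%. These are matches of letters only, and such letters were not tested for binding here.

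The libraries held 8033951 to 12901505 reads, of which the members took 5831 to 27305, and the reads of a single member ran from 10 to 5065. Levels are FPKM, that is fragments scaled to the length of a gene's exons and to the size of the library, so that they can be compared between genes, while the libraries still differ in the scale of their values, as given in the next paragraph. Testing was limited to the 11301 genes that reached 1 FPKM in 3 or more libraries, which left 44 of the members. Called means a limma p under 0.05 after Benjamini-Hochberg adjustment over these 11301, and a log2 fold change, given with its standard error, is on the log2(FPKM + 1) scale, which understates the change of low genes. MCM8, an MCM relative with a role in recombination, missed the filter with 0.751, 0.595 and 0.957 FPKM in the combination, 0.523, 0.557 and 0.645 in doxorubicin, 0.107, 0.227 and 0.160 in IN10018 and 0.428, 0.126 and 0.411 in DMSO, so it was above 0 everywhere and never reached 1.

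Combination replicate 2, IN10018 replicate 1 and DMSO replicate 2 stood apart from the others of their treatment, at the high end of an axis carrying 55.4% of the within-treatment variation. Their scores on it were 25.3, 36.2 and 36.7, against -21.7 and -3.53 in the other combination libraries, -24.2 and -12.0 in IN10018 and -21.9 and -14.7 in DMSO. Combination replicate 1 thus lay nearly as far out on the other side, and it had the largest sum of FPKM over all genes, 721177 against 553704 and 548652 in combination replicates 2 and 3. Among the 45 members the lowest level of the treatment fell in combination replicate 2 for 30, in IN10018 replicate 1 for 33 and in DMSO replicate 2 for 30, while in doxorubicin replicates 1, 2 and 3 it fell there for 5, 23 and 17. Genes of small or ribosomal RNA, with mitochondrial rRNA and tRNA counted among them, took 16.9% to 40.7% of a library's FPKM. Genes of the mitochondrial genome took 19.82% to 40.73%, and both shares were highest in combination replicate 1. The highest level of the combination fell in its replicate 3 for 38 of the 45 members. The median over all genes tested lay 0.20 above DMSO in the combination on the log2 scale and -0.03 after scaling by median ratios. Combination replicate 3 had the largest factor in that scaling, 1.325 against 0.81 to 1.119 in the other libraries. Changes with the combination are therefore read against the 0.20, and counts are also given after that scaling. Statements on which libraries lay above or below others use FPKM before that scaling. In those values the median over all genes tested lay 0.23 higher in the combination than in doxorubicin. The line's markers KRT8 and KRT18 averaged 75.1 to 108.5 and 17.4 to 28.7 FPKM over the 4 treatments, and EPCAM, PAX8 and ERBB2 were all detected. Of the leukocyte markers, CD68 was at 0 in every library and PTPRC and CD3E were at or near 0, while LYZ averaged 7.77 FPKM in doxorubicin against 0.48 in DMSO. The endothelial markers averaged at most 0.19 FPKM, and of the fibroblast markers DCN and PDGFRB were near 0 while LUM averaged 6.91 to 13.2 FPKM and COL1A1 0.55 to 1.82. The part of these in the results was not tested.

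Summed over the 45 members, the level was 495.3, 474.3 and 577.1 FPKM in the combination, 475.2, 441.5 and 464.5 in doxorubicin, 166.4, 203.2 and 229.2 in IN10018 and 286.1, 269.1 and 275.3 in DMSO. Both treatments with doxorubicin thus lay above DMSO in every library, and the 3 IN10018 libraries lay below it. RPA3 and PCNA had the highest mean of the members in all 4 treatments and MCM8 the lowest. The members averaging at least 10 FPKM numbered 12 in the combination, 11 in doxorubicin, 5 in IN10018 and 5 in DMSO. For 32 of the 44 tested members (72.7%) every library with doxorubicin, alone or combined, exceeded every library without it, as did 1201 of all 11301 genes (10.6%).

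**Figure D1:**
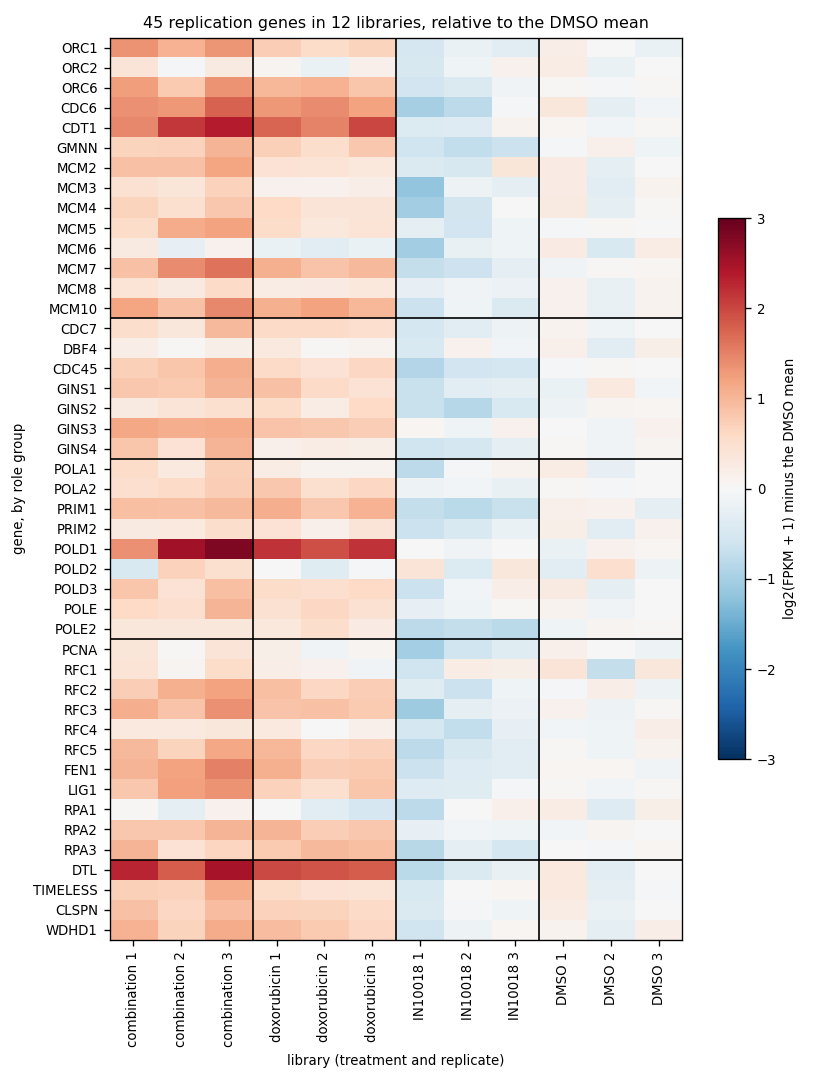
Level of each of the 45 genes (rows, grouped by role in the order licensing, helicase activation, polymerases, clamp and ligase, fork) in each of the 12 libraries (columns), as log2(FPKM + 1) minus the mean of the 3 DMSO libraries, with red for higher and blue for lower. The 6 columns with doxorubicin are red for most genes, with CDT1, POLD1 and DTL the darkest, the IN10018 columns are mostly pale blue and bluest in replicate 1, and the largest value is 2.79.

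Doxorubicin alone raised 22 of the 44 tested members and lowered none, where 5.92% of all genes tested were called higher and 2.1% lower. The median change of the members was 0.59 on the log2 scale, against -0.01 for all genes tested. The 3 doxorubicin libraries lay above the 3 DMSO libraries for 33 members, as for 19% of all genes tested. Calls were spread over the roles, with 7 of 13 in licensing, 2 of 7 in activation, 3 of 9 among the polymerases, 7 of 11 in the clamp and ligase group and 3 of 4 at the fork. POLD1, DTL, CDT1 and CDC6 had the largest changes, between 1.31 and 2.09.

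The count with doxorubicin rested on few libraries. Leaving out doxorubicin replicate 1 brought it to 9, doxorubicin replicate 2 to 12, doxorubicin replicate 3 to 10, DMSO replicate 1 to 13 and DMSO replicate 3 to 10. Over the 12 fits that left out a library, 2.56% to 8.45% of all genes were called higher. Of the 22 genes, 9 were called in every one of the 12 fits that left out a library, namely CDT1, CDC6, MCM10, ORC6, GINS3, POLD1, PRIM1, RPA2 and DTL. The other 13 missed the threshold in at least 2 of those fits, with a highest adjusted p between 0.0587 for MCM7 and 0.181 for CDC45.

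The combination raised 30 of the 44 members against DMSO and lowered none, where 14.3% of all genes tested were called higher and 1.28% lower. Their median change was 0.83, against 0.20 for all genes tested. After median-ratio scaling, which brought the median of all genes to -0.03, the members' median was 0.58 and 26 were called, against 7.35% of all genes. The 3 combination libraries lay above the 3 DMSO libraries for 37 members, as for 24.8% of all genes tested. By role the calls were 9 of 13 in licensing, 5 of 7 in activation, 5 of 9 among the polymerases, 7 of 11 in the clamp and ligase group and 4 of 4 at the fork. With a library left out the count ran from 21 to 32, where 5.82% to 19.6% of all genes were called higher. Of the 30 members, 21 were called in every such fit. The 9 that were not, GMNN, MCM2, CDC7, GINS4, POLA2, POLD3, POLE, RPA3 and TIMELESS, all had their highest adjusted p, 0.0570 to 0.169, without combination replicate 3.

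IN10018 alone gave no call among the 44 members in either direction, where 0.00885% of all genes tested, a single gene, was called. Their changes nonetheless leaned to lower values, with 42 of 44 negative and a median of -0.38, against 0.00 for all genes tested. By limma 21 of them had an unadjusted p under 0.05, all lower, against 2.16% of all genes tested that were lower at that p and 3.66% in either direction, and voom weights on the reads also called none. For 19 members the 3 IN10018 libraries lay below the 3 DMSO libraries, as for 3.45% of all genes tested. The median of the members was -0.29 without the 3 libraries that stood apart, which include IN10018 replicate 1.

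**Figure D2:**
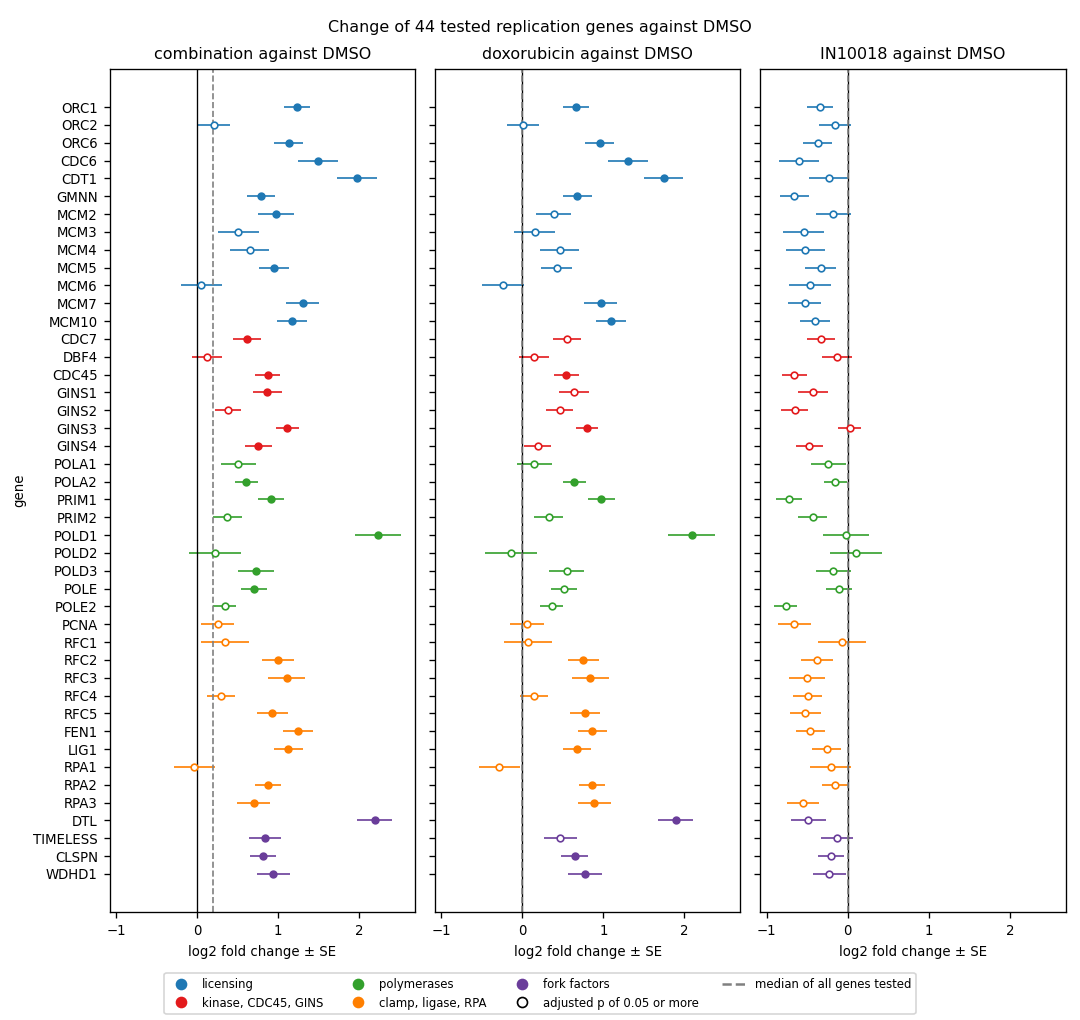
Log2 fold change (horizontal axis, on log2(FPKM + 1), with its standard error as the bar) of the 44 tested genes (rows, coloured by role) in the combination, in doxorubicin and in IN10018, each against DMSO. Filled points passed an adjusted p of 0.05, which 30, 22 and 0 genes did, and the dashed line is the median of all genes tested.

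Among the licensing genes, the loading factors CDT1 and CDC6 rose most in both treatments with doxorubicin. CDT1, which brings MCM to the origin, had 17.7, 29.4 and 34.6 FPKM in the combination, 22.3, 18.4 and 26.6 in doxorubicin, 4.21, 4.28 and 6.44 in IN10018 and 6.25, 5.53 and 6.07 in DMSO. Every library with doxorubicin lay above every library without it, and IN10018 and DMSO overlapped. The change was 1.97 ± 0.24 (adjusted p = 0.000296) with the combination and 1.74 ± 0.24 (adjusted p = 0.00109) with doxorubicin, while with IN10018 it was -0.24 ± 0.24 (adjusted p = 1). The longest transcript of CDT1 is 64.9% G and C, and a correction of each library for GC content and length, chosen after seeing the data, brought its change with the combination to 1.26. CDC6, the ATPase that works with CDT1, had 7.67, 7.26 and 10.4 FPKM in the combination, 7.17, 7.89 and 6.72 in doxorubicin, 0.667, 0.937 and 2.27 in IN10018 and 3.25, 1.74 and 2.17 in DMSO. Here too the 6 libraries with doxorubicin were the highest, and IN10018 replicates 1 and 2 lay below all DMSO libraries while replicate 3 did not. CDC6 rose by 1.49 ± 0.25 (adjusted p = 0.00179) with the combination and by 1.31 ± 0.25 (adjusted p = 0.00665) with doxorubicin, and its difference with IN10018 was -0.60 ± 0.25 (adjusted p = 1).

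Geminin, the inhibitor of CDT1, rose together with it but less. GMNN had 31, 31.1 and 39.3 FPKM in the combination, 31.8, 27.6 and 33.8 in doxorubicin, 12.3, 10.9 and 11.8 in IN10018 and 18.5, 21.2 and 17.4 in DMSO. The 4 treatments separated into 3 levels, since the combination and doxorubicin overlapped above DMSO and all 3 IN10018 libraries lay below DMSO. Its changes were 0.79 ± 0.18 (adjusted p = 0.00924) with the combination, 0.68 ± 0.18 (adjusted p = 0.0324) with doxorubicin and -0.66 ± 0.18 (adjusted p = 0.773) with IN10018, and the call with the combination was lost after median-ratio scaling (adjusted p = 0.121).

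Of the ORC subunits, ORC1 and ORC6 were called and ORC2 was not. ORC1, the large ATPase subunit, had 3.83, 2.91 and 3.77 FPKM in the combination, 2.21, 1.81 and 2.03 in doxorubicin, 0.343, 0.678 and 0.508 in IN10018 and 1.18, 0.932 and 0.656 in DMSO. Its 3 combination libraries were above the 3 doxorubicin libraries, which were above all DMSO libraries, while 2 of the IN10018 libraries were below all of DMSO. ORC1 changed by 1.23 ± 0.16 (adjusted p = 0.000404) with the combination and 0.66 ± 0.16 (adjusted p = 0.0241) with doxorubicin. ORC6, the smallest subunit, had 5.53, 3.76 and 6.03 FPKM in the combination, 4.44, 4.69 and 3.87 in doxorubicin, 0.841, 1.04 and 1.53 in IN10018 and 1.82, 1.62 and 1.79 in DMSO. Combination and doxorubicin libraries were mixed and all lay above DMSO, and IN10018 lay below DMSO in all 3. ORC6 rose by 1.13 ± 0.18 (adjusted p = 0.0013) with the combination and by 0.96 ± 0.18 (adjusted p = 0.00645) with doxorubicin. ORC2, a core subunit, averaged 3.31 ± 0.64 FPKM in the combination, 2.72 ± 0.46 in doxorubicin, 2.36 ± 0.72 in IN10018 and 2.71 ± 0.55 in DMSO (SD, n = 3 each). Its change was 0.21 ± 0.20 (adjusted p = 0.519) with the combination, 0.01 ± 0.20 (adjusted p = 0.992) with doxorubicin and -0.16 ± 0.20 (adjusted p = 1) with IN10018.

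The 6 subunits of the MCM ring did not move as 1 block. MCM7 had 10.1, 15.0 and 17.6 FPKM in the combination, 11.6, 9.96 and 10.8 in doxorubicin, 2.65, 2.92 and 4.03 in IN10018 and 4.61, 5.21 and 5.28 in DMSO. All libraries with doxorubicin were higher than all without, combination replicates 2 and 3 were the highest, and the IN10018 libraries were the lowest. MCM7 rose by 1.31 ± 0.20 (adjusted p = 0.0012) with the combination and by 0.97 ± 0.20 (adjusted p = 0.0124) with doxorubicin, and with IN10018 it differed by -0.53 ± 0.20 (adjusted p = 1). Its exons share 8.9% of their length with AP4M1 on the other strand, and no source used here says whether reads were counted by strand.

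MCM2, another ring subunit, had 5.37, 5.43 and 6.85 FPKM in the combination, 3.67, 3.62 and 3.36 in doxorubicin, 1.59, 1.5 and 3.47 in IN10018 and 3.13, 1.91 and 2.51 in DMSO. The combination lay above all other libraries, doxorubicin above DMSO by a small step, and IN10018 overlapped both doxorubicin and DMSO because of replicate 3. Its change was 0.98 ± 0.22 (adjusted p = 0.0098) with the combination, 0.39 ± 0.22 (adjusted p = 0.328) with doxorubicin and -0.18 ± 0.22 (adjusted p = 1) with IN10018, and 22.7% of its exon length is shared with the antisense gene AC023593.1. MCM5 had 4.78, 7.49 and 8.07 FPKM in the combination, 4.77, 3.95 and 4.22 in doxorubicin, 2.21, 1.64 and 2.63 in IN10018 and 2.88, 3.03 and 2.96 in DMSO. Its combination libraries were all above doxorubicin, if by little in replicate 1, and its IN10018 libraries all below DMSO. MCM5 changed by 0.95 ± 0.19 (adjusted p = 0.00527) with the combination and 0.42 ± 0.19 (adjusted p = 0.207) with doxorubicin.

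MCM3, MCM4 and MCM6, the rest of the ring, passed no comparison with DMSO. With the combination they changed by 0.51 ± 0.25, 0.65 ± 0.24 and 0.06 ± 0.26 (adjusted p = 0.199, 0.0847 and 0.913) and with doxorubicin by 0.15 ± 0.25, 0.46 ± 0.24 and -0.24 ± 0.26 (adjusted p = 0.781, 0.278 and 0.641). MCM6 averaged 3.46 ± 0.25 FPKM in doxorubicin and 4.39 ± 1.4 in DMSO (SD, n = 3 each), and it was called lower there, with a change of -0.47, when the 3 libraries that stood apart were left out (adjusted p = 0.0175), a fit that called 15.1% of all genes lower. MCM10, which is no ring subunit and helps the helicase start, had 3.07, 2.32 and 3.89 FPKM in the combination, 2.79, 3.14 and 2.59 in doxorubicin, 0.151, 0.639 and 0.323 in IN10018 and 0.956, 0.533 and 0.938 in DMSO. The 6 libraries with doxorubicin lay above 2 FPKM and the other 6 under 1. MCM10 rose by 1.17 ± 0.19 (adjusted p = 0.00133) with the combination and by 1.09 ± 0.19 (adjusted p = 0.00377) with doxorubicin.

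In the activation group, CDC45 and GINS3 were called with both treatments that held doxorubicin. CDC45, a part of the active helicase, had 3.44, 3.83 and 4.76 FPKM in the combination, 3.02, 2.71 and 3.17 in doxorubicin, 0.470, 0.836 and 0.887 in IN10018 and 1.64, 1.81 and 1.72 in DMSO. In these values, before median-ratio scaling, the 4 treatments did not overlap, and ran in the order combination, doxorubicin, DMSO and IN10018. Its change was 0.87 ± 0.16 (adjusted p = 0.00271) with the combination and 0.54 ± 0.16 (adjusted p = 0.0491) with doxorubicin, and -0.66 ± 0.16 (adjusted p = 0.497) with IN10018. The call with doxorubicin was lost in 9 of the 12 fits without 1 library.

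GINS3 had 3.35, 3.15 and 3.23 FPKM in the combination, 2.53, 2.43 and 2.26 in doxorubicin, 1.03, 0.804 and 1.14 in IN10018 and 0.927, 0.812 and 1.15 in DMSO. Before that scaling it too was highest in the combination and next in doxorubicin without overlap, but IN10018 and DMSO were mixed. GINS3 rose by 1.12 ± 0.14 (adjusted p = 0.000285) with the combination and by 0.80 ± 0.14 (adjusted p = 0.00391) with doxorubicin, against 0.02 ± 0.14 (adjusted p = 1) with IN10018, and 10.9% of its exon length is shared with the antisense gene AC009118.2. GINS1 had 4.44, 4.34 and 5.27 FPKM in the combination, 4.74, 3.65 and 3.19 in doxorubicin, 0.937, 1.45 and 1.56 in IN10018 and 1.69, 2.77 and 1.94 in DMSO, so that combination and doxorubicin overlapped above DMSO. GINS1 changed by 0.87 ± 0.18 (adjusted p = 0.00719) with the combination and, just outside the threshold, by 0.64 ± 0.18 (adjusted p = 0.0516) with doxorubicin.

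GINS2 had 2.74, 3.11 and 3.40 FPKM in the combination, 3.61, 2.63 and 3.74 in doxorubicin, 0.972, 0.735 and 1.28 in IN10018 and 1.82, 2.33 and 2.25 in DMSO. All 6 libraries with doxorubicin lay above DMSO, and all 3 IN10018 libraries below it. Neither change with doxorubicin passed, at 0.38 ± 0.16 (adjusted p = 0.138) for the combination and 0.46 ± 0.16 (adjusted p = 0.111) for doxorubicin, and that with IN10018 was -0.66 ± 0.16 (adjusted p = 0.687). GINS4 had 4.13, 2.90 and 4.87 FPKM in the combination, 2.25, 2.41 and 2.27 in doxorubicin, 0.907, 1.03 and 1.36 in IN10018 and 1.97, 1.70 and 2.05 in DMSO. It differed from the other GINS subunits in that doxorubicin alone lay only slightly above DMSO, while the combination lay above doxorubicin and IN10018 below DMSO without overlap. Its change was 0.75 ± 0.17 (adjusted p = 0.00913) with the combination and 0.19 ± 0.17 (adjusted p = 0.565) with doxorubicin, and 21.2% of its exon length is shared with the antisense gene AC009630.2.

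CDC7, the kinase that fires origins, rose by 0.62 ± 0.18 (adjusted p = 0.0305) with the combination (adjusted p = 0.0506 after median-ratio scaling), and changed by 0.55 ± 0.18 (adjusted p = 0.0724) with doxorubicin. Its partner DBF4 averaged 1.49 ± 0.15 FPKM in the combination, 1.51 ± 0.23 in doxorubicin, 1.10 ± 0.42 in IN10018 and 1.30 ± 0.43 in DMSO (SD, n = 3 each), and its changes of 0.13 with the combination, 0.14 with doxorubicin and -0.13 with IN10018 were all smaller than their standard errors of 0.19.

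**Figure D3:**
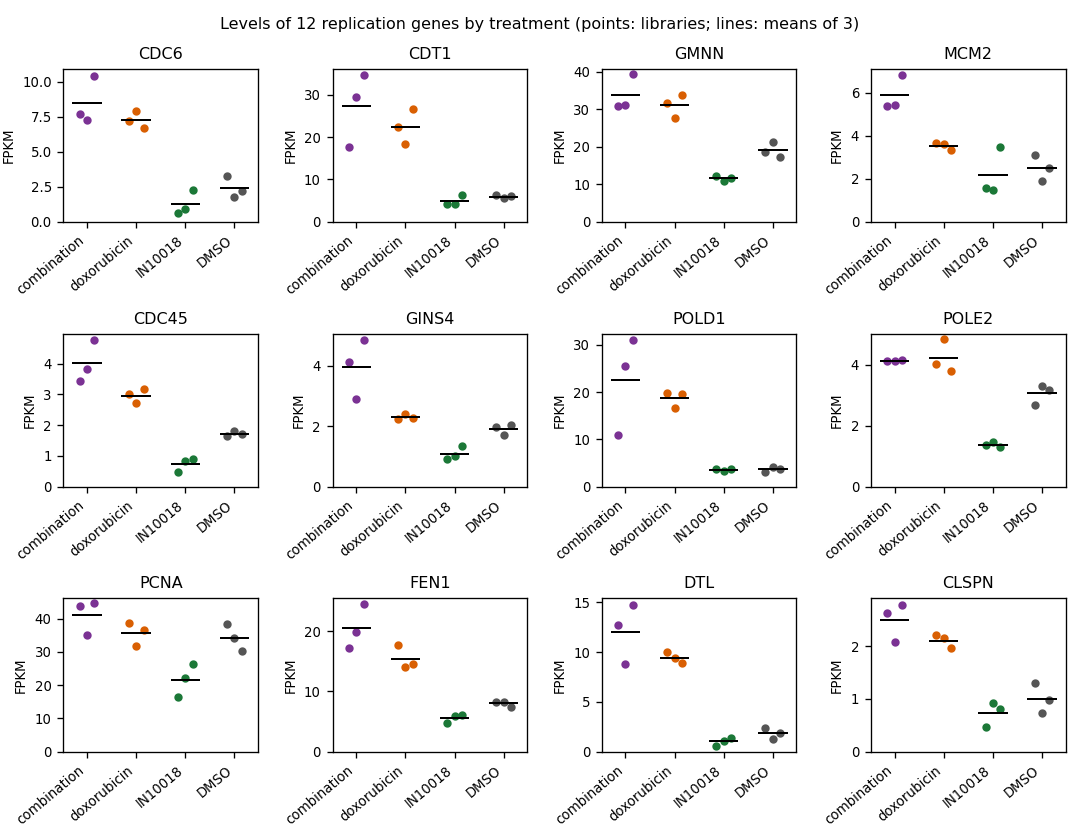
FPKM (vertical axis, from 0) of 12 of the genes in the combination, doxorubicin, IN10018 and DMSO, with a point for each of the 3 libraries and a line at their mean. CDT1, CDC6, POLD1 and DTL are several times higher in both treatments with doxorubicin. CDC45 falls into 4 separate levels in these values, before median-ratio scaling, and PCNA and POLE2 differ mainly by being low in IN10018.

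Among the polymerases, the catalytic subunit of polymerase delta stood out. POLD1 had 11.0, 25.5 and 31 FPKM in the combination, 19.8, 16.6 and 19.6 in doxorubicin, 3.66, 3.28 and 3.69 in IN10018 and 3.02, 4.09 and 3.81 in DMSO. Every library with doxorubicin was higher than every library without, although combination replicate 1 was far below the other combination libraries, and IN10018 and DMSO were mixed. POLD1 rose by 2.23 ± 0.29 (adjusted p = 0.000363) with the combination and by 2.09 ± 0.29 (adjusted p = 0.000937) with doxorubicin, against -0.03 ± 0.29 (adjusted p = 1) with IN10018, and 8.6% of its exon length is shared with AC020909.1 on the same strand. With 65.0% G and C in its longest transcript, POLD1 was brought to 1.52 with the combination by the same correction for GC content and length. The other delta subunits did not follow it alike. POLD2 averaged 22.3 ± 8.6 FPKM in the combination, 16.1 ± 2.1 in doxorubicin, 19.9 ± 5.9 in IN10018 and 18.5 ± 6.2 in DMSO (SD, n = 3 each) and was not called (adjusted p = 0.694 with the combination and 0.846 with doxorubicin), and POLD3 was called with the combination only, at 0.73 ± 0.22 (adjusted p = 0.04) and, after median-ratio scaling, at 0.50 (adjusted p = 0.0825).

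Primase and polymerase alpha make the primers. PRIM1, the catalytic primase subunit, had 7.24, 7.14 and 7.63 FPKM in the combination, 8.33, 6.72 and 8.06 in doxorubicin, 1.67, 1.53 and 1.79 in IN10018 and 3.88, 3.83 and 2.64 in DMSO. The combination and doxorubicin were mixed at the top, DMSO was in between and IN10018 was at the bottom without overlap. PRIM1 rose by 0.92 ± 0.16 (adjusted p = 0.00254) with the combination and by 0.98 ± 0.16 (adjusted p = 0.00313) with doxorubicin, and with IN10018 it differed by -0.73 ± 0.16 (adjusted p = 0.411), while 14.9% of its exon length is shared with AC117378.1 on the same strand. POLA2, the second subunit of polymerase alpha, had 0.910, 1.00 and 1.25 FPKM in the combination, 1.37, 0.877 and 1.08 in doxorubicin, 0.207, 0.268 and 0.158 in IN10018 and 0.389, 0.285 and 0.368 in DMSO. It was low throughout, with the 6 libraries with doxorubicin above the other 6. POLA2 rose by 0.61 ± 0.14 (adjusted p = 0.0116) with the combination and by 0.64 ± 0.14 (adjusted p = 0.0152) with doxorubicin, with the reservation that 35.1% of its exon length is shared with AP000944.2 on the same strand. POLA1, the catalytic subunit of alpha, and PRIM2, the large primase subunit, were not called against DMSO in either treatment, with changes of 0.51 ± 0.22 and 0.37 ± 0.18 in the combination (adjusted p = 0.135 and 0.18).

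Polymerase epsilon copies the leading strand. POLE, its catalytic subunit, had 1.62, 1.44 and 2.46 FPKM in the combination, 1.36, 1.63 and 1.36 in doxorubicin, 0.456, 0.571 and 0.776 in IN10018 and 0.860, 0.593 and 0.715 in DMSO, so that all libraries with doxorubicin were above the others. POLE rose by 0.71 ± 0.16 (adjusted p = 0.0109) with the combination, and its change with doxorubicin was 0.51 ± 0.16 (adjusted p = 0.0721). POLE2, the second subunit, had 4.12, 4.12 and 4.14 FPKM in the combination, 4.02, 4.84 and 3.79 in doxorubicin, 1.37, 1.47 and 1.31 in IN10018 and 2.69, 3.31 and 3.18 in DMSO. Combination and doxorubicin were above DMSO by little, and IN10018 was at less than the lowest DMSO library in all 3. The changes were 0.34 ± 0.14 (adjusted p = 0.126) with the combination, 0.36 ± 0.14 (adjusted p = 0.147) with doxorubicin and -0.77 ± 0.14 (adjusted p = 0.256) with IN10018, the last being the lowest p of any member with IN10018. With library weights estimated by limma, POLE2 was called lower with IN10018 (adjusted p = 0.0225), the only member called there under any setting tried, in a fit that called 0.177% of all genes.

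In the clamp and ligase group, the enzymes that process the lagging strand rose and the clamp itself was not called. FEN1, the flap endonuclease, had 17.2, 19.9 and 24.5 FPKM in the combination, 17.7, 14.0 and 14.6 in doxorubicin, 4.76, 5.83 and 6.05 in IN10018 and 8.32, 8.30 and 7.37 in DMSO. Every library with doxorubicin lay above every DMSO library, and all 3 IN10018 libraries lay below DMSO. FEN1 rose by 1.25 ± 0.18 (adjusted p = 0.00079) with the combination and by 0.86 ± 0.18 (adjusted p = 0.0118) with doxorubicin, and with IN10018 it differed by -0.46 ± 0.18 (adjusted p = 1). LIG1, the ligase that seals the nicks, had 4.33, 6.09 and 6.76 FPKM in the combination, 3.92, 3.26 and 4.42 in doxorubicin, 1.33, 1.38 and 1.95 in IN10018 and 2.10, 1.89 and 2.14 in DMSO. Doxorubicin lay between the combination and DMSO with overlap only at 1 combination library. LIG1 rose by 1.13 ± 0.18 (adjusted p = 0.00125) with the combination and by 0.67 ± 0.18 (adjusted p = 0.0337) with doxorubicin.

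PCNA, the sliding clamp, had 43.9, 35.0 and 44.7 FPKM in the combination, 38.8, 31.7 and 36.5 in doxorubicin, 16.5, 22.2 and 26.3 in IN10018 and 38.4, 34.2 and 30.4 in DMSO. The combination, doxorubicin and DMSO overlapped, and only the 3 IN10018 libraries lay apart, below all others. Its changes were 0.25 ± 0.21 (adjusted p = 0.456) with the combination, 0.05 ± 0.21 (adjusted p = 0.911) with doxorubicin and -0.66 ± 0.21 (adjusted p = 0.9) with IN10018, and the sign of the change with the combination turned to -0.05 after median-ratio scaling.

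The clamp loader RFC split between its subunits. RFC2 had 13.0, 16.6 and 18.3 FPKM in the combination, 14.7, 11.9 and 13.0 in doxorubicin, 5.51, 4.39 and 6.69 in IN10018 and 7.15, 8.65 and 6.56 in DMSO, with the 6 libraries with doxorubicin above the others. RFC2 rose by 1.00 ± 0.19 (adjusted p = 0.00464) with the combination and by 0.75 ± 0.19 (adjusted p = 0.0314) with doxorubicin. RFC5 had 10.1, 8.0 and 11.7 FPKM in the combination, 10.4, 7.73 and 8.21 in doxorubicin, 2.31, 3.10 and 3.55 in IN10018 and 4.82, 4.18 and 5.10 in DMSO, in the same order and with all 3 IN10018 libraries below DMSO. RFC5 rose by 0.93 ± 0.19 (adjusted p = 0.00579) with the combination and by 0.77 ± 0.19 (adjusted p = 0.0253) with doxorubicin. RFC3 likewise rose, by 1.11 ± 0.23 (adjusted p = 0.00584) with the combination and 0.84 ± 0.23 (adjusted p = 0.0372) with doxorubicin. RFC4 had 7.51, 7.51 and 7.76 FPKM in the combination, 7.55, 5.86 and 6.81 in doxorubicin, 3.88, 3.20 and 4.91 in IN10018 and 5.57, 5.41 and 7.05 in DMSO. Combination and doxorubicin overlapped with each other, doxorubicin overlapped with DMSO, and IN10018 lay below DMSO. RFC4 changed by 0.30 ± 0.17 (adjusted p = 0.278) with the combination, 0.14 ± 0.17 (adjusted p = 0.688) with doxorubicin and -0.50 ± 0.17 (adjusted p = 1) with IN10018, and RFC1, the large subunit, was at 0.34 with the combination (adjusted p = 0.482), 0.07 with doxorubicin (adjusted p = 0.921) and -0.07 with IN10018 (adjusted p = 1).

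The single-strand binding protein RPA split in the same way. RPA2, the middle subunit, had 22.5, 22.3 and 25.9 FPKM in the combination, 26.2, 21.3 and 22.3 in doxorubicin, 10.3, 11.5 and 11.2 in IN10018 and 11.7, 13.2 and 12.2 in DMSO. The lowest library with doxorubicin had 21.3 FPKM, against 13.2 in the highest without it. RPA2 rose by 0.88 ± 0.16 (adjusted p = 0.00358) with the combination and by 0.86 ± 0.16 (adjusted p = 0.00698) with doxorubicin. RPA3, the smallest subunit, had 138, 92.3 and 106 FPKM in the combination, 117, 134 and 127 in doxorubicin, 37.4, 54.8 and 47.0 in IN10018 and 67.0, 66.0 and 70.1 in DMSO. Combination and doxorubicin overlapped, all above DMSO, and IN10018 lay below DMSO. RPA3 rose by 0.70 ± 0.20 (adjusted p = 0.034) with the combination and by 0.88 ± 0.20 (adjusted p = 0.0181) with doxorubicin, the call with the combination being lost after median-ratio scaling (adjusted p = 0.268). RPA1, the large subunit, changed by -0.03 ± 0.26 (adjusted p = 0.953) with the combination and -0.28 ± 0.26 (adjusted p = 0.568) with doxorubicin, and was called lower with doxorubicin, at -0.48, without the 3 libraries that stood apart (adjusted p = 0.0473), where 15.1% of all genes were.

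All 4 fork genes rose with the combination and 3 of them with doxorubicin. DTL, the adaptor through which the CRL4 ubiquitin ligase destroys CDT1 on loaded PCNA, had 12.7, 8.84 and 14.7 FPKM in the combination, 9.99, 9.40 and 8.91 in doxorubicin, 0.602, 1.09 and 1.40 in IN10018 and 2.41, 1.27 and 1.85 in DMSO. The lowest of the 6 libraries with doxorubicin had 8.84 FPKM, against 2.41 in the highest of the other 6. DTL rose by 2.19 ± 0.22 (adjusted p = 7.48e-05) with the combination and by 1.89 ± 0.22 (adjusted p = 0.000296) with doxorubicin, and with IN10018 it differed by -0.49 ± 0.22 (adjusted p = 1). CLSPN, which carries the checkpoint signal of a stalled fork to CHK1, had 2.63, 2.07 and 2.79 FPKM in the combination, 2.21, 2.15 and 1.96 in doxorubicin, 0.464, 0.921 and 0.808 in IN10018 and 1.30, 0.726 and 0.970 in DMSO. Combination and doxorubicin overlapped above DMSO, and IN10018 overlapped with DMSO. CLSPN rose by 0.81 ± 0.16 (adjusted p = 0.00544) with the combination and by 0.65 ± 0.16 (adjusted p = 0.0279) with doxorubicin, and its difference with IN10018 was -0.21 ± 0.16 (adjusted p = 1).

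WDHD1, which ties polymerase alpha to the helicase, had 3.13, 2.15 and 3.31 FPKM in the combination, 2.81, 2.40 and 2.04 in doxorubicin, 0.309, 0.799 and 1.07 in IN10018 and 1.14, 0.621 and 1.27 in DMSO. The 6 libraries with doxorubicin all lay above the other 6. WDHD1 rose by 0.94 ± 0.21 (adjusted p = 0.00823) with the combination and by 0.77 ± 0.21 (adjusted p = 0.035) with doxorubicin. TIMELESS, a fork protection factor, had 7.19, 7.0 and 9.67 FPKM in the combination, 6.27, 5.74 and 5.57 in doxorubicin, 2.60, 3.96 and 4.18 in IN10018 and 5.09, 3.12 and 3.85 in DMSO. It ran from the combination through doxorubicin to an overlapping DMSO and IN10018. TIMELESS rose by 0.84 ± 0.20 (adjusted p = 0.0131) with the combination, and its change with doxorubicin was 0.47 ± 0.20 (adjusted p = 0.183).

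Adding IN10018 to doxorubicin called no member in either direction, as 0 of all 11301 genes tested (0%) by limma, and voom weights called none of the members. An unadjusted p under 0.05 was found for 6 members (13.6%), all higher, which is close to the 13.7% of all genes tested that were higher at that p. Positive differences numbered 38 of 44, with a median of 0.20, but 81.2% of all genes were positive too, with a median of 0.23. After median-ratio scaling 19 members were positive and 25 negative, so no direction can be given for the members as a whole. For 9 members the 3 combination libraries lay above the 3 doxorubicin libraries, as for 24.8% of all genes tested. The smallest p belonged to ORC1 at 0.57 ± 0.16 (adjusted p = 0.246), GINS4 at 0.57 ± 0.17 (adjusted p = 0.246) and MCM5 at 0.53 ± 0.19 (adjusted p = 0.255). MCM2 had a difference of 0.59 ± 0.22 (adjusted p = 0.267), CDC45 of 0.33 ± 0.16 (adjusted p = 0.321), FEN1 of 0.38 ± 0.18 (adjusted p = 0.323) and CDT1 of 0.23 ± 0.24 (adjusted p = 0.57). Those of POLE2 and PRIM1 were -0.02 ± 0.14 (adjusted p = 0.931) and -0.06 ± 0.16 (adjusted p = 0.825). Without the 3 libraries that stood apart, DTL, GINS4, MCM6, ORC1 and POLA1 were called higher, 5 of 44 where 9.82% of all genes were. With library weights CDC45, FEN1, GINS4, LIG1, MCM2, MCM5, MCM7, ORC1 and TIMELESS were called higher, 9 of 44 where 18% of all genes were. MCM5 was called without combination replicate 1 (adjusted p = 0.0354), where 5.65% of all genes were called higher. GINS4 alone was called, at 0.47 (adjusted p = 0.0413), when median-ratio scaling was added to leaving out the 3, where 0.416% of all genes were called higher.

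Adding doxorubicin to IN10018 raised 38 of the 44 members and lowered none, where 14.6% of all genes tested were called higher and 1.43% lower. The median difference was 1.17, against 0.20 for all genes tested, and after median-ratio scaling 0.91 against -0.03 with 37 called, where 8.83% of all genes were called higher. The 3 combination libraries lay above the 3 IN10018 libraries for 38 members, as for 24.6% of all genes tested. All genes of the fork group, 11 of 13 in licensing, 6 of 7 in activation, 8 of 9 among the polymerases and 9 of 11 in the clamp and ligase group were called. The smallest p belonged to DTL at 2.68 ± 0.22 (adjusted p = 1.64e-05), PRIM1 at 1.65 ± 0.16 (adjusted p = 5.88e-05) and CDC45 at 1.53 ± 0.16 (adjusted p = 6.75e-05).

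Several members that did not pass against DMSO passed here. PCNA was higher in the combination than in IN10018 by 0.91 ± 0.21 (adjusted p = 0.00868), POLE2 by 1.11 ± 0.14 (adjusted p = 0.000248), GINS2 by 1.04 ± 0.16 (adjusted p = 0.00103), MCM3 by 1.06 ± 0.25 (adjusted p = 0.0121), MCM4 by 1.18 ± 0.24 (adjusted p = 0.00496) and RFC4 by 0.80 ± 0.17 (adjusted p = 0.0073). CDT1 differed by 2.21 ± 0.24 (adjusted p = 0.000114), CDC6 by 2.09 ± 0.25 (adjusted p = 0.000168), FEN1 by 1.71 ± 0.18 (adjusted p = 8.87e-05), GMNN by 1.45 ± 0.18 (adjusted p = 0.000173), MCM2 by 1.16 ± 0.22 (adjusted p = 0.00314) and CLSPN by 1.02 ± 0.16 (adjusted p = 0.0011). Not called were ORC2, MCM6, DBF4, POLD2, RFC1 and RPA1, at 0.13 to 0.52. With a library left out the count ran from 35 to 38, where 7.19% to 18.2% of all genes were called higher. MCM3, POLA1 and POLD3 each lost the call without combination replicate 3, with adjusted p of 0.0661, 0.146 and 0.0695.

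The effect of doxorubicin can be set side by side with and without IN10018, in comparisons that share no library. It was larger with IN10018 for all 44 members, but it was also larger for 77.6% of all genes tested. The interaction, which is the combination minus both single treatments plus DMSO on the log2 scale, had a median of 0.61 over the members against 0.25 over all genes tested, and after median-ratio scaling 39 of the 44 were positive, with a median of 0.38 against 0.03. No member passed the interaction test by limma, nor did any of the 11301 genes (0%), and the smallest adjusted p of a member was 0.684. An unadjusted p under 0.05 was found for 22 members, all positive, against 4.75% of all genes tested that were positive at that p and 6.1% in either direction, and voom weights called none of the members.

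The largest interactions were those of GINS4 at 1.04 ± 0.24 (adjusted p = 0.684), CDC45 at 0.99 ± 0.22 (adjusted p = 0.684) and ORC1 at 0.92 ± 0.23 (adjusted p = 0.684). For GINS4 the effect of IN10018 was 0.57 ± 0.17 with doxorubicin and -0.47 ± 0.17 without it, and for CDC45 it was 0.33 ± 0.16 with doxorubicin and -0.66 ± 0.16 without it. PCNA had an interaction of 0.86 ± 0.29, FEN1 of 0.85 ± 0.26, CDC6 of 0.78 ± 0.35, GMNN of 0.77 ± 0.25, MCM2 of 0.77 ± 0.31 and POLE2 of 0.74 ± 0.20 (adjusted p = 0.685 for each), while CDT1 was at 0.47 ± 0.35, CLSPN at 0.37 ± 0.23 and POLD1 at 0.17 ± 0.40. That IN10018 acts differently in the presence of doxorubicin on any of these genes was thus not shown.

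**Figure D4:**
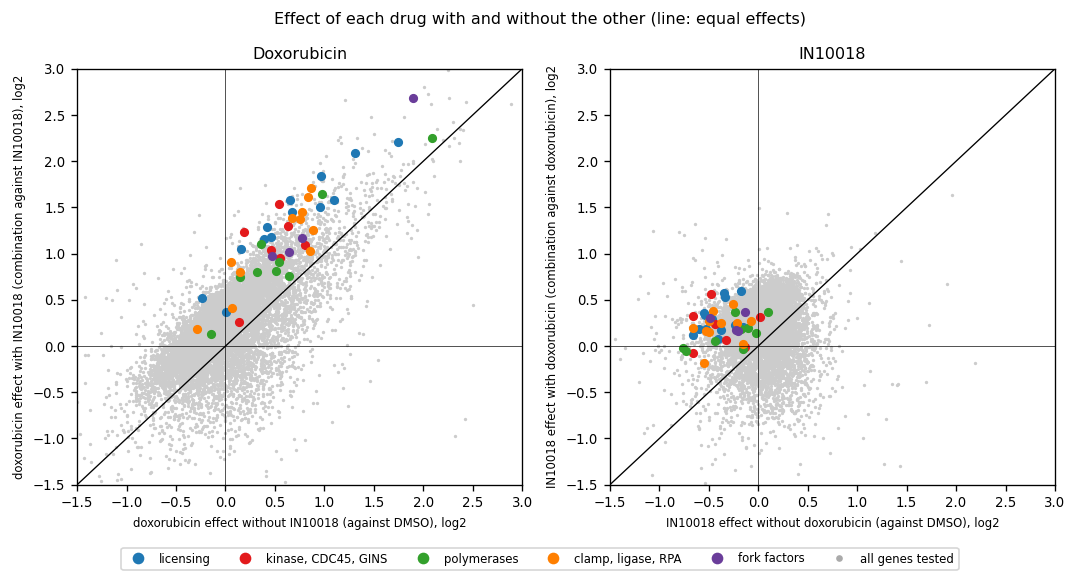
Log2 effect of doxorubicin (left) and of IN10018 (right) in the presence of the other drug (vertical axis) against its effect in the absence of the other drug (horizontal axis), with the 44 genes coloured by role, all genes tested in grey and a line where both effects are equal; 25 genes on the left and 8 on the right lie outside the axes. All 44 genes lie above the line in both panels, as do 77.6% of all genes, and the gap of each to the line is its interaction.

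Another 36 genes of replication that are no members, among them further ORC and polymerase subunits, chromatin assembly factors and replication-coupled ubiquitin ligases, were followed for comparison, and 32 of them were tested. Doxorubicin raised 6 of the 32, where 5.92% of all genes were called higher. The combination raised 16 against DMSO and 21 against IN10018, where 14.3% and 14.6% of all genes were called higher. None was lowered, and none was called with IN10018 alone or between the combination and doxorubicin, where 0.00885% and 0% of all genes were called. With IN10018, 6 of the 32 had an unadjusted p under 0.05, all lower, against 2.16% of all genes, and between the combination and doxorubicin 3 did (9.38%), all higher, against 13.7% of all genes. Their median change was 0.38 with doxorubicin and 0.54 with the combination, on the same scale as the 0.59 and 0.83 of the members. Over all genes tested the medians were -0.01 and 0.20.

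CHTF18, a subunit of an alternative clamp loader, had 9.03, 17.8 and 19.2 FPKM in the combination, 13.4, 11.1 and 12.7 in doxorubicin, 1.89, 1.85 and 2.46 in IN10018 and 1.80, 2.27 and 2.06 in DMSO. The lowest library with doxorubicin had 9.03 FPKM, against 2.46 in the highest without it. It rose by 2.36 ± 0.23 (adjusted p = 7.48e-05) with the combination and by 2.14 ± 0.23 (adjusted p = 0.000237) with doxorubicin. TRAIP, a ubiquitin ligase that acts on the replication machinery, rose by 1.33 ± 0.16 (adjusted p = 0.000285) with the combination and 1.07 ± 0.16 (adjusted p = 0.00198) with doxorubicin, while ASF1B, a histone chaperone, and RECQL4, a helicase needed for replication start, rose with doxorubicin by 1.16 ± 0.26 (adjusted p = 0.0156) and 1.30 ± 0.30 (adjusted p = 0.0177). With the combination CHAF1A, the large subunit of the chromatin assembly factor, and CDC25A, a phosphatase that activates CDK2, rose by 1.28 ± 0.20 (adjusted p = 0.00131) and 0.97 ± 0.14 (adjusted p = 0.000975). With IN10018 the smallest p belonged to PCLAF, a PCNA-binding protein, at -0.76 ± 0.18 (adjusted p = 0.554).

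The calls were also counted among members with and without an E2F match in the promoter window. With doxorubicin 8 of 16 tested members with a match were called, as were 12 of 22 without, and the medians of the 2 sets were 0.64 and 0.60. With the combination against DMSO the calls were 11 of 16 with a match and 14 of 22 without, with medians of 0.84 and 0.86. Against IN10018 they were 15 of 16 and 17 of 22, with medians of 1.10 and 1.28. With IN10018 alone none was called in either set and the medians were -0.35 and -0.38. Of all genes tested, 5.92% were called higher with doxorubicin, 14.3% with the combination against DMSO and 14.6% against IN10018. With IN10018 alone 0.00885% were called. Only exact letters counted as a match, so members without a match are not shown to lack E2F sites. These shares are a description and were not tested, and only the 38 tested members with a window enter them.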

How the data were processed

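RNA of SK-OV-3 cells was sequenced after 24 h in 4 treatments, with 3 libraries each, from a strand-directional kit. The FPKM values, 1 per gene and library as deposited, had been normalized by the authors to gene length and library size. TopHat, Cufflinks, Cuffdiff and hg38 stand in the submitters' processing notes, with no version, and no source used here names the annotation. The FPKM of all 24090 genes above 0 in at least 3 libraries stood in whole-number ratios (relative tolerance 3e-12), which gave the reads and depths, and their counting error is largest for members with few reads.

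Rows that share a symbol were summed (93 symbols), and a gene entered the test if 3 or more libraries had 1 FPKM or more. The test was limma 3.58.1 (R 4.3.3) on log2(FPKM + 1), with a mean for each of the 4 treatments, all 12 libraries in the fit, a variance trend, 8 residual degrees of freedom and no replicate block. It was two-sided, with p adjusted over 11301 genes. The authors' Cuffdiff test needs reads and was not used here. The fit was also run on simulated data, and no result of that run is given here. The alternatives were another pseudocount, filter, scaling, replicate block or set of libraries, voom weights on the recovered reads, and, chosen after seeing the data, a GC content and length correction, library weights, and 2 choices joined. The 3 libraries that stood apart were also picked from these same data. The members and lists were chosen with earlier results of these data known.

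Members with values in every library are, per role, up to 4 called with the smallest p in each comparison with DMSO (2 where fewer than 2 were called), the 3 smallest p of each other comparison, and CDC6, CDT1, GMNN, MCM2, CDC45, POLE2, PCNA, FEN1 and CLSPN. Gene positions and exon overlaps come from GENCODE release 29 (GRCh38) and promoters from RefSeq. Figures were drawn with Python 3.11.15 and matplotlib 3.10.9.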

Additional observations from a re-analysis of the deposited data

Results flagged for a closer look

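For MCM5, CDC45 and GINS4 the effect of IN10018 pointed in opposite directions with and without doxorubicin, in that all 3 combination libraries lay above all 3 doxorubicin libraries and all 3 IN10018 libraries lay below all 3 DMSO libraries. This held for 3 of the 44 tested members (6.82%) and for 68 of all 11301 genes tested (0.602%). The test of the difference itself, the interaction from limma on the log2(FPKM + 1) scale, was 0.86 ± 0.27 for MCM5 (adjusted p = 0.685), 0.99 ± 0.22 for CDC45 (adjusted p = 0.684) and 1.04 ± 0.24 for GINS4 (adjusted p = 0.684), so none passed. For MCM5 the gap was narrow, with 4.783 FPKM in combination replicate 1 and 4.774 in doxorubicin replicate 1. These separations use FPKM before median-ratio scaling. The factors it divides by were 1.1, 1.119 and 1.325 in the combination and 1.039, 0.927 and 0.918 in doxorubicin. Divided by these factors, combination replicate 1 no longer lies above all doxorubicin libraries for MCM5 and CDC45, and for GINS4 the gap nearly closes. Before scaling, the combination libraries lie higher as a whole, by a median of 0.23 over all genes against doxorubicin. The part of that in the 3 results was not otherwise tested. With median-ratio scaling and without the 3 libraries that stood apart, the interaction of GINS4 was 0.92 (adjusted p = 0.0426). That setting was chosen after seeing the data and has fewer libraries in the combination, IN10018 and DMSO. It called the interaction of 1.45% of all genes tested, and 0.0177% of all genes tested were called higher.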

How the results depend on the processing

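Shares in brackets are of all genes called in the same fit, and the calls with doxorubicin and all libraries were 22 (8.02%). They came to 14 (1.47%) without a filter on low values, 13 of 23 members tested (12.4%) with a filter at 5 FPKM, 14 (4.92%) with the replicate block and 9 to 23 (3.21% to 11.4%) with a library left out. They came to 26 (11.7%) with median-ratio scaling, 24 (13.2%) with quantile normalization, 30 (21.7%) with the GC content and length correction, 28 (26.7%) without the 3 libraries that stood apart, 32 (41.5%) with library weights, and 32 (32.8%) with median-ratio scaling and without those 3, and 2 of the members called were lower in each of the last 3. The 30 calls of the combination against DMSO (15.6%) came to 15 of 23 (18%) with the 5 FPKM filter, 22 (8.09%) with only the 2 groups in the fit and 21 to 32 (6.28% to 21.3%) with a library left out, and the 38 against IN10018 (16.1%) came to 19 of 23 (18.1%) and, with a library left out, to 35 to 38 (7.8% to 19.5%). Against doxorubicin, where none was called, the count was 0 to 1 (0% to 5.98%) with a library left out, 5 (11.7%) without the 3 libraries that stood apart, 9 (20%) with library weights, and 1 (4.16%) with median-ratio scaling and without those 3, a setting that also called 1 interaction (1.45%). With IN10018, 1 member was called with library weights (0.177%) and none with any of the 12 libraries left out.

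Same-numbered libraries did not steadily deviate together: of 18 pairs, 5 had a correlation of their deviations over 0.1, with a range of -0.678 to 0.718. The lowest was IN10018 with DMSO at replicate 1 and the highest the combination with DMSO at replicate 2, both involving libraries that stood apart. With 3 libraries per treatment, such correlations cannot tell whether the numbers pair the samples. With the replicate block the calls were 14 (4.92% of all genes) for doxorubicin, 0 (0%) for IN10018 and 28 (11.3%) for the combination. They were 37 (12.3%) for the combination against IN10018, and 0 (0%) for the combination against doxorubicin and for the interaction.

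Of the values of single named genes under an alternative, 2167 kept their direction and side of the threshold, 74 lost a call, 15 gained one and 20 changed sign, none of the 20 being called. PCNA with doxorubicin turned to -0.0189 under quantile normalization and ran from -0.0268 to 0.137 with a library left out (-0.0066 without doxorubicin replicate 1), and in the combination against DMSO it turned to -0.0486 with median-ratio scaling. Between the combination and doxorubicin, median-ratio scaling gave -0.0803 for CDC6, -0.0516 for CDT1, -0.169 for GMNN, -0.0866 for PCNA and -0.0382 for CLSPN, and without the 3 libraries as well it gave -0.0244 for CDC6, -0.1645 for CDT1, -0.151 for GMNN and -0.0122 for PCNA. Quantile normalization gave -0.0751 for CDC6, -0.0249 for GMNN and -0.0464 for CLSPN, the GC content and length correction gave -0.0832 for CDC6, -0.0938 for CDT1 and -0.0942 for CLSPN, and POLE2 ran from -0.0793 to 0.0631 with a library left out. The causes were not tested. Depth limits the lowest members, MCM8 and POLA2 most.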
